A study of Mus musculus with 25 samples.

Results

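Homologous recombination and Fanconi genes were followed through pituitaries in which RB was knocked down and then allowed to return. The set held 39 listed symbols that repair or guard broken and crosslinked DNA. All 39 were found among the 15315 genes of the long-term table, and 38 were found among the 14007 genes of the short-term table, which did not list Fancb. Symbols were matched exactly to the gene column. The genes were chosen with earlier results of these data known, so the list as a whole was given no p-value.

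Homologous recombination repairs a DNA double-strand break by copying the intact sister chromatid, and cells do this mainly in S and G2 phase, when that copy exists. The ends are first trimmed to single strands, BRCA1, PALB2 and BRCA2 then prepare the strand for pairing with its template, and helicases and nucleases finally undo the joined DNA molecules. The Fanconi pathway uses a core complex to mark FANCD2 and FANCI with ubiquitin at DNA crosslinks and feeds into the same machinery, while the kinases ATM, ATR, CHK1 and CHK2 signal the damage. Several of these genes are known targets of E2F transcription factors, which RB restrains.

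All mice carried one doxycycline (dox)-inducible shRNA against Rb at Col1a1, linked to GFP, together with a reverse tetracycline transactivator at Rosa26, and the line came from 1 targeted embryonic stem cell clone. The knock-down was systemic rather than restricted to the pituitary, and no group of mice without dox treatment was analysed here. The paper describes the sequenced samples of both sets as pituitary tumors, and its methods name frozen pituitaries as the source of RNA. The long-term groups held 3 female mice after 6 weeks on dox (6w+dox), 4 mice after 12 weeks on dox (12w+dox, 2 female and 2 male), and 5 mice given dox for 6 weeks and then no dox for 6 weeks (12w-res, 3 female and 2 male). The short-term groups held 3 male mice after 16 weeks on dox (16w +dox), 4 female mice 1 day after dox removal (1d -dox), 3 male mice after 3 days (3d -dox) and 3 female mice after 5 days (5d -dox). Per the labels, long-term libraries were enriched for poly(A) RNA and short-term libraries were depleted of ribosomal RNA, a split that the study's methods do not give, so levels were compared only within each set. In the 1d -dox and 5d -dox groups, sex and time off dox cannot be told apart.

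Values were deposited as fragments scaled by sequencing depth with size factors (FPM), which were whole reads once unscaled. Libraries held 19066053 to 28968476 gene reads in the long-term set and 9573101 to 13036900 in the short-term set. Rb1, the target of the shRNA, was at 1.86 to 5.09 FPM in the 6w+dox and 12w+dox mice and at 16.1 to 20.3 FPM in 12w-res, and GFP fell from a mean of 1246 FPM at 16w +dox to 11.7 FPM at 5d -dox. Short-term Rb1 stood at 3.47 to 4.89 FPM at 16w +dox and 4.92 to 5.38 FPM at 5d -dox (log2 difference 0.27, SE 0.17, limma adjusted p = 0.525). All 6 melanotroph and corticotroph markers, Pomc among them, were above 0 in every library. They summed to 96003.9 FPM or more in each long-term library, and most of that sum was Pomc, at 93231 FPM or more. Neurod1 was at 0.472 to 4.57 FPM in the 12w+dox and 12w-res mice. Markers of 8 anterior lobe genes summed to 58669 to 94156 FPM at 6w+dox, 1217 to 13053 FPM at 12w+dox and 17320 to 34968 FPM in 12w-res. Genes were called when limma's adjusted p was under 0.05 and the log2 fold change was over 1 in size, with the adjustment made over every gene tested.

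To show the DNA in front of the genes on which the results turn, the window before the RefSeq start was taken for the 4 genes with the lowest adjusted p in 12w-res against 12w+dox that had an entry, and for Mus81, the gene of highest level per length that was not called. Sequences are from RefSeq on GRCm38.p6, read 5′ to 3′ on the minus strand, and only the stretch outside annotated untranslated regions is shown. Capitals mark matches to letters searched on both strands: E2F letters (TTTCGCGC, TTTGGCGC, TTTCCCGC or TTTGCCGC), CHR letters (TTTGAA or TTCGAA) and CCAAT.
Chek1 (chr9:36726659-36726908, 250 bases): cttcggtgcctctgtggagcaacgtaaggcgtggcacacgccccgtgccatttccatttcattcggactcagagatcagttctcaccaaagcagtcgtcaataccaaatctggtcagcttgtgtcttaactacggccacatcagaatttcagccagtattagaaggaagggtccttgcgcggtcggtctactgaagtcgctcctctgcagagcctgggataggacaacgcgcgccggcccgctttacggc
Brca1 (chr11:101551956-101552148, 193 bases): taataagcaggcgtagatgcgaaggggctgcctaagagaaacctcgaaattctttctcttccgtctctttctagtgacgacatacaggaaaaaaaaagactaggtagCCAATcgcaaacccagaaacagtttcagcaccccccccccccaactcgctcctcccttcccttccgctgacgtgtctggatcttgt
Rad51ap1 (chr6:126939588-126939837, 250 bases): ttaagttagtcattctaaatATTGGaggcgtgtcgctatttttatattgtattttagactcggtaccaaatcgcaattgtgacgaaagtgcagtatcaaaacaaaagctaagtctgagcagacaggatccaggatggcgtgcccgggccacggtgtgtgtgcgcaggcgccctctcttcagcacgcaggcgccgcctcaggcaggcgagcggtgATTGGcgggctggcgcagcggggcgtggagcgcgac
Bard1 (chr1:71103147-71103222, 76 bases): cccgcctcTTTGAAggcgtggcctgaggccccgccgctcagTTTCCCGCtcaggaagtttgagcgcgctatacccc
Mus81 (chr19:5488403-5488629, 227 bases): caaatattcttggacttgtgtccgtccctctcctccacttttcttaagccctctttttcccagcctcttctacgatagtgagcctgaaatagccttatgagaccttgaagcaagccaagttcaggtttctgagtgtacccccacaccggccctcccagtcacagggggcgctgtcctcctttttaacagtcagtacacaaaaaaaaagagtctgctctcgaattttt

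The Brca1 stretch held CCAAT 86 bases before the start, Rad51ap1 held it on the other strand 230 and 36 bases before, and Bard1 held E2F letters 209 bases and CHR letters 242 bases before. The stretches of Chek1 and Mus81 held none of these letters, which says nothing of the factors. In the GENCODE annotation Chek1 spans chr9:36708482-36727065, so its printed stretch lies before the RefSeq start but inside that longer gene. Of the 39 genes, 30 had at least 1 window of 250 bases before to 50 bases after a start. E2F letters were in windows of 6 of these 30 genes (Bard1, Brca2, Chek2, Fancg, Rad51c and Rmi1). Counted by window they were in 7 of 34, against 2.26% of the 32851 mouse windows. By gene, 3 of 14 called and 3 of 16 other genes held them. CCAAT was in 19 of 30 genes and 22 of 34 windows, against 37.4% of all windows. CHR letters were in 4 of 30 genes and 4 of 34 windows, against 19.2%. A gene can have more than 1 window, and motif matches are a description only.

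The central comparison asked how the repair genes differed once RB had been restored for weeks. In 12w-res, 19 of the 39 genes were called lower than at 12w+dox and 0 higher, where 5.04% of all genes were called lower and 6.24% higher. At the adjusted p alone 28 of 39 were lower and 0 higher, against 18.3% and 19.4% of all genes. The median log2 fold change was -0.97 over the 39 genes and -0.0040 over all genes tested, and 38 of the 39 estimates were below 0, against 50.3% of all genes. Of the 19 called genes 8 had a 12w-res library under 10 reads, and with at least 10 reads asked of every sample the median was -0.59 and 11 of 30 genes were called lower. In 28 genes every 12w-res mouse lay below every 12w+dox mouse, which was so for 17.4% of all genes. In bulk tissue, fewer cells of a type and less RNA per cell cannot be told apart.

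Proliferation markers moved with these genes. All 15 of 15 fell in 12w-res, with a median log2 fold change of -3.06, and Mki67, a marker of cycling cells, went from a mean of 110.0 to 10.2 FPM. The summed level of the 15 markers was 789 to 1070 FPM at 12w+dox and 136 to 144 FPM in 12w-res, with 0 markers at 0. All 6 of 6 fibroblast markers and 5 of 6 endothelial markers were called higher in 12w-res, the former summing to 80.3 to 308 FPM at 12w+dox and 495 to 1152 FPM in 12w-res, and the latter to 58.6 to 125 and 189 to 262 FPM. Called higher as well were 2 of 8 anterior lobe markers (median log2 fold change 0.999) and 2 of 6 melanotroph and corticotroph markers (0.64). Of 8 macrophage and 4 neural lobe markers 0 were called, though their median log2 fold changes were 0.73 and 0.69. Macrophage markers summed to 107 to 142 FPM at 12w+dox and 165 to 236 FPM in 12w-res, without overlap. Neural lobe markers summed to 4.16 to 6.49 and 4.17 to 9.79 FPM. Pomc took 39.1% to 43.2% of gene reads in 12w-res and 12.9% to 23.0% at 12w+dox. The part of these shifts in the results was not tested. Scaling by read totals in place of size factors moved the median of all genes to -0.61 and that of the 39 genes to -1.56, with 30 called lower.

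**Figure D1:**
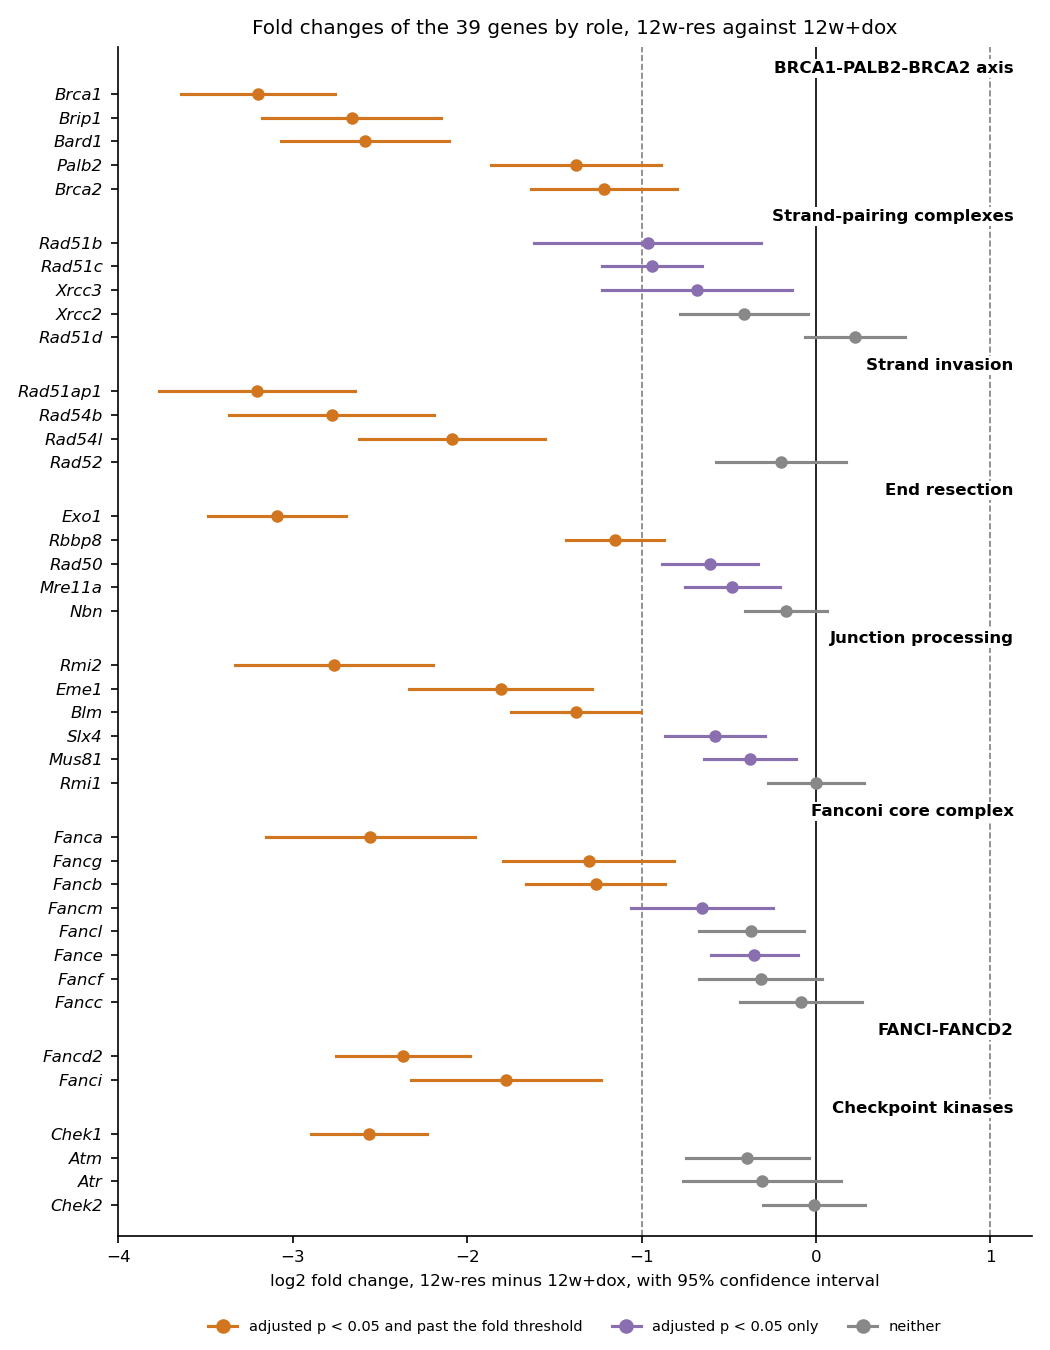
Fitted log2 fold change of each of the 39 genes, 12w-res minus 12w+dox (horizontal axis), with its 95% confidence interval, grouped by role. Orange points passed the adjusted p and the fold threshold (19 genes), purple points passed the adjusted p only (9 genes) and grey points neither (11 genes). Dashed lines mark the fold threshold, and Rad51d is the 1 point right of 0.

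The BRCA1-PALB2-BRCA2 axis fell as a whole, with 5 of 5 genes called lower and a median log2 fold change of -2.59. Brca1, which directs repair toward recombination, was at 12.98, 14.9, 13.1 and 16.6 FPM in the 12w+dox mice. It was at 0.572, 1.32, 1.14, 1.299 and 1.38 FPM in 12w-res, or 11 to 25 reads a library. Every 12w-res mouse lay far below every 12w+dox mouse. The 12w-res mean was 7.95% of the 12w+dox mean (log2 fold change -3.20, SE 0.21, limma adjusted p = 6.15e-08). Its partner in the ubiquitin ligase, Bard1, was at 7.40, 9.79, 10.4 and 11.1 FPM at 12w+dox and at 1.92, 0.634, 1.37, 0.827 and 1.44 FPM in 12w-res, again with no overlap (log2 fold change -2.59, SE 0.22, limma adjusted p = 1.15e-06). The helicase Brip1 (FANCJ), which binds BRCA1, showed 6.28, 6.12, 5.76 and 7.85 FPM against 0.988, 1.16, 0.273, 0.295 and 0.553 FPM (log2 fold change -2.66, SE 0.24, limma adjusted p = 1.69e-06). Within this axis the estimates nearest 0 were those of Brca2 and Palb2. Brca2, whose product acts on the single-stranded DNA, was at 23.1, 20.2, 15.3 and 27.0 FPM at 12w+dox and kept 8.63, 9.72, 9.42, 6.73 and 9.61 FPM in 12w-res, a mean of 41.2% of the 12w+dox level. Its log2 fold change was -1.21 (SE 0.20, limma adjusted p = 3.12e-04), and that of Palb2, the bridge between BRCA1 and BRCA2, was -1.38 (SE 0.23, limma adjusted p = 3.86e-04).

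The strand-pairing complex genes Rad51b, Rad51c, Rad51d, Xrcc2 and Xrcc3 behaved unlike the axis above: 0 of 5 were called, and their median log2 fold change was -0.68. Their proteins work in shared complexes on the single-stranded DNA. Rad51b (-0.97, SE 0.30, limma adjusted p = 0.0221), Rad51c (-0.94, SE 0.13, limma adjusted p = 1.11e-04) and Xrcc3 (-0.68, SE 0.25, limma adjusted p = 0.0473) passed the adjusted p without reaching the fold threshold. Rad51b was a gene of few reads, with 4 to 23 in the 12w-res libraries. It passed the fold threshold too with DESeq2 (-1.51) or edgeR (-1.50) on whole reads, a pseudocount of 0.1 (-1.44) and read totals (-1.36). The same held when 12w+dox replicate 1 (-1.14) or 4 (-1.03) or 12w-res replicate 1 (-1.02) or 3 (-1.14) was left out. With read totals, which moved the median of all genes to -0.61, Rad51c (-1.56) and Xrcc3 (-1.29) passed as well. Xrcc2 did not pass (-0.41, adjusted p = 0.0727), although its groups did not overlap. Rad51d alone of the 39 genes had an estimate above 0, with a mean of 39.6 FPM in 12w-res and 33.9 FPM at 12w+dox (log2 fold change 0.22, 95% confidence interval -0.06 to 0.51, adjusted p = 0.199).

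Of the genes for strand invasion and annealing, 3 of 4 were called lower, with a median log2 fold change of -2.43. Rad51ap1, which helps capture the template, was at 6.91, 11.7, 15.5 and 9.52 FPM at 12w+dox. In 12w-res it stood at 0.884, 0.740, 0.319, 1.299 and 0.442 FPM, 6.75% of the former mean (log2 fold change -3.21, SE 0.26, limma adjusted p = 6.51e-07). For the motor protein Rad54l the 12w+dox mice gave 2.58, 3.70, 5.11 and 3.99 FPM and the 12w-res mice 0.520, 0.475, 0.319, 0.354 and 0.939 FPM (log2 fold change -2.09, SE 0.25, limma adjusted p = 2.47e-05). Its relative Rad54b changed by -2.78 (SE 0.27, limma adjusted p = 4.21e-06), on 2 to 19 reads in 12w-res. Every 12w-res value of these 3 genes lay below every 12w+dox value. Rad54b shares 2068 exon bases with Fsbp on the same strand and Rad54l shares 1184 with Lrrc41 on the other, and whether counting used strand is not given in the sources used here. Rad52, which anneals single strands, differed by -0.20 (adjusted p = 0.391).

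Of the 5 end resection genes, 2 were called lower and 4 were lower at the adjusted p. Exo1, the long-range exonuclease, had the lowest adjusted p of the set. It was at 6.14, 8.19, 7.79 and 7.79 FPM at 12w+dox and at 0.416, 0.211, 0.410, 0.472 and 0.718 FPM in 12w-res, which was 5.96% of the level on 4 to 13 reads a library (log2 fold change -3.09, SE 0.18, limma adjusted p = 3.28e-08). Rbbp8 (CtIP), which starts the trimming, changed by -1.15 (SE 0.13, limma adjusted p = 1.72e-05). The MRE11-RAD50-NBS1 complex finds the break. Its genes differed by -0.48 (Mre11a, adjusted p = 0.00884), -0.61 (Rad50, adjusted p = 0.00211) and -0.17 (Nbn, adjusted p = 0.230), none reaching the fold threshold. Every 12w-res mouse was below every 12w+dox mouse for Mre11a and Rad50. Nbn had means of 19.7 and 22.2 FPM in overlapping groups.

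Among genes that take apart joined DNA molecules, 3 of 6 were called lower, and each belonged to a complex with a partner that was not called. BLM, RMI1 and RMI2 dissolve double Holliday junctions together. Blm was at 5.93, 6.09, 6.65 and 7.07 FPM at 12w+dox and at 1.92, 1.64, 2.18, 2.95 and 2.32 FPM in 12w-res (log2 fold change -1.37, SE 0.17, limma adjusted p = 4.19e-05). Rmi2 was at 6.87, 8.13, 8.93 and 9.83 FPM and at 1.56, 0.264, 0.774, 0.649 and 1.16 FPM (log2 fold change -2.76, SE 0.27, limma adjusted p = 3.12e-06). Neither gene had overlapping groups. Rmi1, by contrast, averaged 15.7 FPM in both groups, with a 95% confidence interval of -0.27 to 0.27 around a log2 fold change of -0.00052 (adjusted p = 0.998). The nuclease MUS81 works with EME1: Eme1 fell by 1.81 on the log2 scale (SE 0.24, limma adjusted p = 7.59e-05), with 0 to 10 reads in 12w-res, and Mus81 by 0.38 (adjusted p = 0.0253). Slx4, the scaffold for such nucleases, fell by 0.58 (adjusted p = 0.00406).

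The Fanconi core complex was mixed, with 3 of 8 genes called lower and a median of -0.51. Fanca changed by -2.55 (SE 0.28, limma adjusted p = 1.17e-05) on 1 to 12 reads in 12w-res, Fancg by -1.30 (SE 0.23, limma adjusted p = 5.96e-04) and Fancb by -1.26 (SE 0.19, limma adjusted p = 1.58e-04). Fanca shares 920 exon bases with Zfp276 on the other strand. The call of Fancg was the only one of the 19 lost under an alternative in which the gene was tested: among females alone its log2 fold change was -1.12 (adjusted p = 0.0561). Fancm, the translocase that brings the complex to DNA, differed by -0.65 (adjusted p = 0.0151) and Fance by -0.35 (adjusted p = 0.0272). Fancl, which carries the ligase activity, narrowly missed the threshold at -0.37 (adjusted p = 0.0501), and Fancf (-0.32, adjusted p = 0.142) and Fancc (-0.09, adjusted p = 0.707) did not pass.

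Both genes of the FANCI-FANCD2 pair, the substrate of the core complex, were called lower. Fancd2 was at 7.22, 7.46, 7.85 and 8.63 FPM at 12w+dox and at 0.988, 0.792, 1.05, 1.299 and 1.49 FPM in 12w-res (log2 fold change -2.37, SE 0.18, limma adjusted p = 3.01e-07). The 12w+dox mice were close together, and all 12w-res mice were far below them. Fanci was at 4.54, 6.67, 7.85 and 5.92 FPM at 12w+dox and at 1.04, 2.06, 2.46, 1.00 and 1.05 FPM in 12w-res (log2 fold change -1.78, SE 0.25, limma adjusted p = 1.20e-04). It shares 921 exon bases with Polg, and Fancd2 shares 257 with Fancd2os, in both cases on the other strand.

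Of the checkpoint kinases only Chek1 was called. Chek1 (CHK1), the kinase that slows replication under stress, was at 11.1, 13.5, 16.3 and 12.6 FPM at 12w+dox and at 1.92, 1.80, 2.14, 1.42 and 1.93 FPM in 12w-res, with 24 to 47 reads (log2 fold change -2.56, SE 0.16, limma adjusted p = 3.76e-08). Atm, the kinase that answers to double-strand breaks, was at 49.1, 36.5, 30.7 and 53.9 FPM at 12w+dox and at 24.8, 34.4, 31.2, 30.8 and 37.7 FPM in 12w-res. Its groups overlapped (log2 fold change -0.39, SE 0.16, adjusted p = 0.0721). The upstream partner of CHK1, Atr, differed by -0.31 (95% confidence interval -0.76 to 0.14, adjusted p = 0.266) and Chek2 by -0.01 (95% confidence interval -0.30 to 0.28, adjusted p = 0.955).

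**Figure D2:**
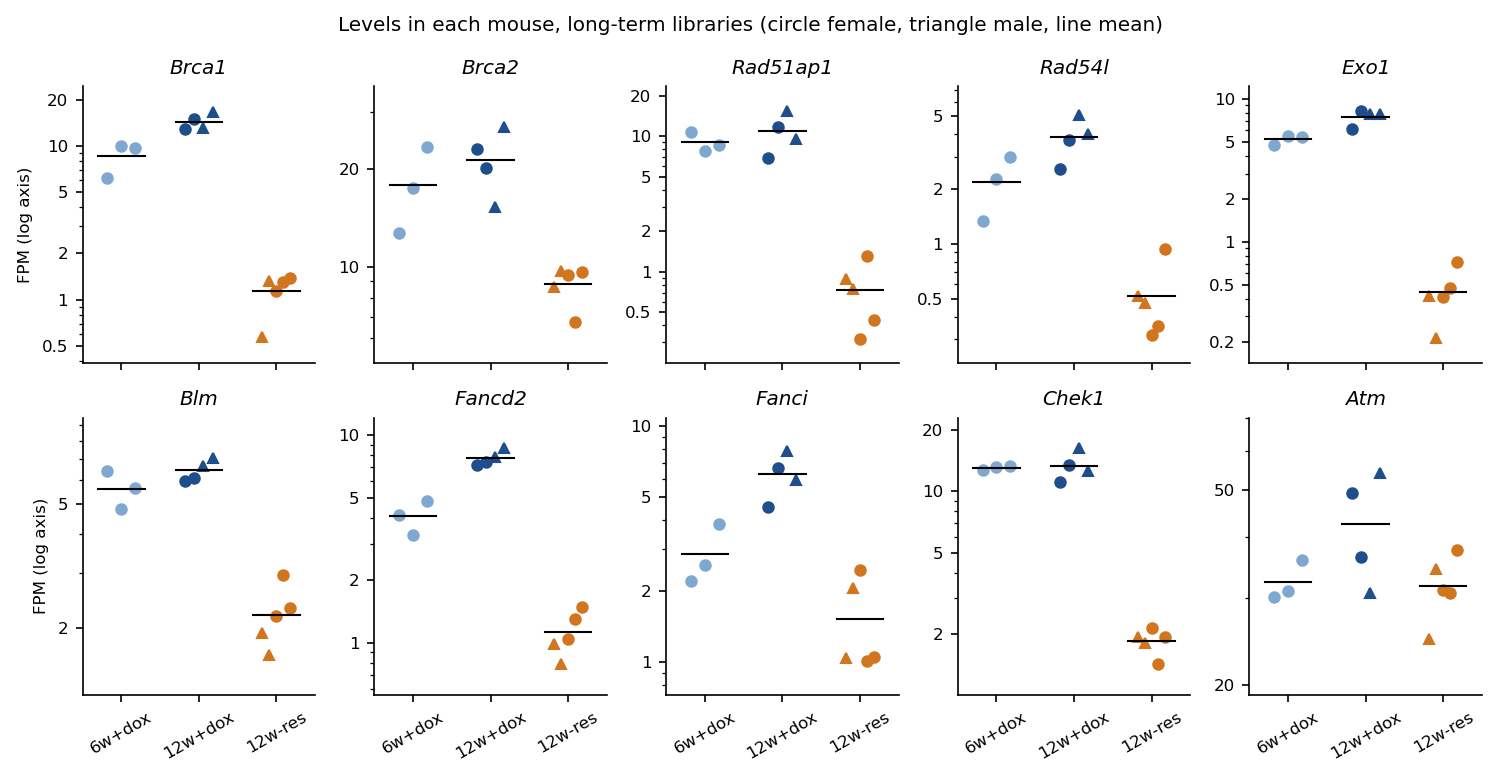
FPM of 10 of the genes in each long-term mouse, on log axes of different ranges, by group (circles female, triangles male, horizontal lines group means). For 9 genes every 12w-res mouse lies below every 12w+dox mouse, and Atm is the gene whose groups overlap.

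Per kilobase of the longest annotated transcript, levels at 12w+dox ran from 0.663 FPM per kb for Rad51b to 14.2 FPM per kb for Mus81, with a median of 2.52. After Mus81 came Rad51d (9.55 FPM per kb), Nbn (8.78) and Fance (8.71). In this order 37 of 38 neighbours overlapped in the ranges of their mice, so most adjacent ranks cannot be told apart. In 12w-res the highest levels were those of Rad51d (11.2 FPM per kb), Mus81 (10.7) and Nbn (7.77), the lowest was that of Exo1 (0.0571), and the median was 1.22. The 19 called genes did not include the 4 of highest level at 12w+dox, but Rad51ap1 ranked 7 of 39, Rbbp8 12 and Chek1 13.

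**Figure D3:**
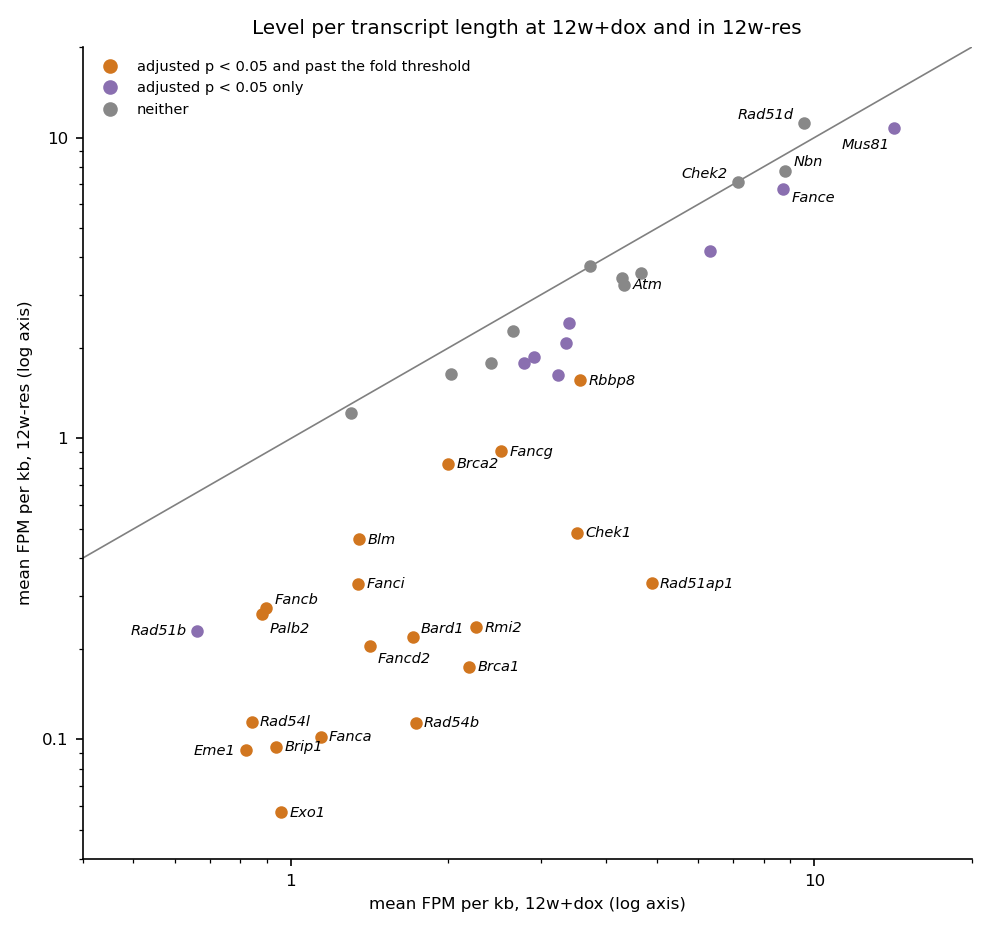
Mean level of each of the 39 genes in FPM per kb of its longest transcript at 12w+dox (horizontal) and in 12w-res (vertical), both log axes, coloured by the result of the test, with the grey line marking equal levels. Rad51d lies above the line, and Exo1 is lowest at 0.0571 FPM per kb in 12w-res.

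Other genes of the same pathways, from a list of 54, gave 18 called lower and 0 higher in 12w-res against 12w+dox, with 29 lower and 5 higher at the adjusted p alone and a median of -0.65. The lowest adjusted p values belonged to Clspn, the adaptor through which ATR activates CHK1 (log2 fold change -3.77, SE 0.20, limma adjusted p = 1.18e-08), Topbp1, an activator of ATR (-1.80, SE 0.12, limma adjusted p = 6.20e-08), and Timeless, of the fork protection complex (-2.44, SE 0.18, limma adjusted p = 1.96e-07). End joining, which repairs breaks without a template, was represented by 20 genes, of which 3 were called lower and 0 higher. At the adjusted p alone 6 were lower and 2 higher, and the median was -0.25. Of all genes, 5.04% were called lower and 6.24% higher, and 18.3% and 19.4% passed the adjusted p alone. The 2 higher genes were Lig4 (log2 fold change 0.75, limma adjusted p = 5.11e-04) and Poll (0.39, limma adjusted p = 0.0434). The 3 were Mdc1 (log2 fold change -1.31), H2afx (-1.50) and Rif1 (-1.12), which mark breaks on chromatin or steer the choice of pathway. Mdc1, H2afx and Rnf168, a ubiquitin ligase at breaks (-0.76, not past the fold threshold), had the lowest p values of the list, and H2afx and Mdc1 also serve recombination.

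Both sexes showed the fall. Among the 19 called genes the 12w-res effect lay between -3.09 and -1.01 in females and between -3.45 and -1.11 in males. A test of the difference between sexes passed for 0 of 39 genes (smallest limma adjusted p = 0.999), and 0 passed at an unadjusted p under 0.05, where 4.27% of all genes did. With 2 to 3 mice per sex and group such a test is coarse.

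Set against 6w+dox, where mice had been on dox for the same weeks but had not come off it, 12w-res showed 16 of 39 genes called lower and 0 higher (5.82% and 5.81% of all genes). At the adjusted p alone 25 were lower and 1 higher (16.8% and 17% of all genes). The median was -0.77, and that of all genes -0.02. These counts share the 12w-res mice with those above and are not independent of them. The 6 of lowest adjusted p were Chek1 (-2.54, SE 0.17, limma adjusted p = 1.21e-07), Exo1 (-2.61, SE 0.20, limma adjusted p = 4.48e-07), Brca1 (-2.47, SE 0.22, limma adjusted p = 2.29e-06), Rmi2 (-3.17, SE 0.29, limma adjusted p = 2.34e-06), Bard1 (-2.59, SE 0.24, limma adjusted p = 3.15e-06) and Rad51ap1 (-3.0, SE 0.28, limma adjusted p = 3.37e-06). Chek1 was at 12.7, 13.1 and 13.4 FPM in the 6w+dox mice, and Exo1 was at 4.77, 5.48 and 5.38 FPM. No 12w-res mouse reached these values. Rad51c (-1.22) and Xrcc3 (-1.09) were called here and not against 12w+dox. The 1 gene higher at the adjusted p was Rad51d (0.61, SE 0.14, limma adjusted p = 0.00518), at a mean of 25.6 FPM at 6w+dox. Here 14 of 15 proliferation markers were called lower in 12w-res (median -2.88), as were 3 of 8 anterior lobe (-1.64) and 2 of 4 neural lobe markers (-1.31). Called higher were 2 of 6 fibroblast (0.55) and 1 of 8 macrophage markers (0.73). Of 6 melanotroph and corticotroph markers 2 were called higher and 1 lower (1.04), and of 6 endothelial markers 0 were called (0.38). The part of these shifts in 12w-res against 6w+dox was not tested. All 6w+dox mice were female. The 12w-res mice were also 6 weeks further from the start of dox, so elapsed time and dox removal cannot be told apart here. The call of Xrcc3 was lost without 12w-res replicate 1 or 6w+dox replicate 3.

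Between 6 and 12 weeks on dox few of the genes passed a test. Fanci was called higher, 1 of 39, and 0 were called lower, against 3.15% and 4.04% of all genes. Fanci was at 2.21, 2.58 and 3.85 FPM at 6w+dox, and its lowest 12w+dox mouse was at 4.54 FPM (log2 fold change 1.00, SE 0.29, limma adjusted p = 0.0247). Its call rested on a fold change at the threshold: 0 genes were called without 12w+dox replicate 2 or 3 or without 6w+dox replicate 1 or 2, with sex as a covariate or among females alone, and 2 without 6w+dox replicate 3. Its partner Fancd2, at 4.13, 3.30 and 4.84 FPM at 6w+dox, was also higher at the adjusted p (0.86, SE 0.20, limma adjusted p = 0.00980), as were Fancm (0.77, SE 0.22, limma adjusted p = 0.0222) and Brca1 (0.73, SE 0.23, limma adjusted p = 0.0384), making 4 of 39 where 10.4% of all genes were. Only Nbn was lower at the adjusted p (-0.37, SE 0.13, limma adjusted p = 0.0454), where 12.0% of all genes were, and Rad51c differed by -0.28 (adjusted p = 0.206). The median was 0.24, with 28 of 39 estimates above 0 and 49.5% of all genes above 0. The summed proliferation markers were at 792 to 1156 FPM at 6w+dox and 789 to 1070 FPM at 12w+dox. Markers of other cells were called lower at 12w+dox: 6 of 8 anterior lobe (median log2 fold change -2.87), 2 of 4 neural lobe (-2.0), 3 of 6 endothelial (-0.84) and 3 of 6 fibroblast markers (-1.40). Of 6 melanotroph and corticotroph markers 1 was called lower and 1 higher (-0.45), and of 8 macrophage markers 0 were called (0.01). The part of these shifts was not tested.

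In the days after dox removal no member was called. Against 16w +dox, 0 of 38 genes were called after 1 day (0.0358% of all genes lower, 0.00716% higher), 0 of 38 after 3 days (0.0502% and 0.0788%) and 0 of 38 after 5 days (0.107% and 0.0860%). DESeq2 and edgeR on whole reads called 0 as well. At an unadjusted p under 0.05, limma gave 4 genes higher after 1 day, 6 after 3 days and 1 after 5 days, against 6.78%, 7.95% and 7.20% of all genes. It gave 0 lower each time, against 6.28%, 8.70% and 6.33%. Every 95% confidence interval lay within 1 log2 unit of 0 after 1 and 5 days, and 37 of 38 did so after 3 days, where that of Blm reached 1.02. A fall the size of that in Brca1 or Exo1 after weeks without dox was therefore outside the intervals in the first 5 days. Proliferation markers summed to 332 to 454 FPM at 16w +dox, 378 to 558 at 1d -dox, 404 to 570 after 3 days and 400 to 469 after 5 days. Fibroblast markers summed to 69.0 to 79.8 FPM at 16w +dox, 25.5 to 44.1 after 1 day, 44.8 to 107 after 3 days and 25.3 to 51.9 after 5 days, with 0 of 6 called at any time. Endothelial markers summed to 23.6 to 41.3, 13.2 to 17.03, 22.5 to 41.9 and 10.6 to 14.5 FPM in the same order, with 1 of 6 called lower after 1 day and after 5 days. Anterior lobe markers summed to 198 to 239, 23.0 to 106, 167 to 885 and 25.6 to 102 FPM, with 1 of 8 called lower after 1 day and after 5 days and 1 higher after 3 days. The part of these shifts was not tested.

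Most estimates lay slightly above 0. The median log2 fold change over 38 genes was 0.13 after 1 day, 0.18 after 3 days and 0.05 after 5 days, with 30, 30 and 29 estimates above 0, while 49.5%, 51.9% and 49.8% of all genes were above 0. The 16w +dox mice are shared by these comparisons. Their replicate 2 was the lowest of 3 in 26 of the 38 genes, or 68.4%, and in 38.8% of all genes, and replicate 1 was the highest in 27. Without replicate 1 the medians were 0.24, 0.27 and 0.13 in the same order, and without replicate 2 they were 0.04, 0.06 and -0.04, the last being on the other side of 0. With read totals the 5d -dox median was -0.02. The median at 5d -dox against 1d -dox, both female, was -0.06, with 0 called (0.00716% of all genes in each direction), 0 at an unadjusted p under 0.05 (2.67% of all genes lower, 3.65% higher) and 30 of 38 estimates below 0 (49.8% of all genes).

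Brca2 had the lowest p of the set at all 3 times. It was at 16.2, 14.6 and 15.3 FPM at 16w +dox, with 19.1, 18.4, 20.8 and 18.4 FPM at 1d -dox. Its 3d -dox mice showed 17.7, 18.8 and 20.01 FPM, and its 5d -dox mice showed 18.6, 20.8 and 17.5 FPM. Every mouse off dox was above every 16w +dox mouse, yet the differences of 0.31 (SE 0.08, limma adjusted p = 0.125), 0.29 (SE 0.08, limma adjusted p = 0.128) and 0.29 (SE 0.08, limma adjusted p = 0.140) did not pass. Groups did not overlap in this direction for 5.60%, 10.6% and 9.64% of all genes. At 3d -dox Blm was at 3.11, 2.88 and 4.69 FPM against 2.87, 2.03 and 1.71 FPM at 16w +dox (0.58, SE 0.20, limma adjusted p = 0.176). Replicate 3 of 3d -dox was the highest of its group in 28 of 38 genes, or 73.7%, and in 34.5% of all genes.

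The remaining lowest p values in each direction gave no call either. At 1d -dox these were Brca1 (0.41, adjusted p = 0.322), at 10.4, 6.92 and 8.50 FPM before and 11.3, 11.5, 13.9 and 9.45 FPM after, Slx4 (-0.13, adjusted p = 0.614) and Nbn (-0.14, adjusted p = 0.622). They were Slx4 (-0.21, adjusted p = 0.352) and Rbbp8 (-0.15, adjusted p = 0.583) at 3d -dox, and Chek2 (0.39, adjusted p = 0.449), Rbbp8 (-0.20, adjusted p = 0.532) and Xrcc2 (-0.22, adjusted p = 0.587) at 5d -dox. Between 5d -dox and 1d -dox they were Slx4 (0.15, adjusted p = 0.814), Rad51d (0.11, adjusted p = 0.900), Xrcc2 (-0.32, adjusted p = 0.766) and Rbbp8 (-0.24, adjusted p = 0.766). Exo1, Chek1 and Fancd2, called lower in 12w-res, had 5d -dox values within the range of the 16w +dox mice. Exo1 was at 3.79, 2.0 and 2.78 FPM at 16w +dox and 2.83, 3.53 and 2.42 FPM at 5d -dox, Chek1 at 2.90, 2.08 and 3.09 FPM and 3.06, 2.42 and 2.73 FPM, and Fancd2 at 3.54, 1.39 and 2.78 FPM and 2.58, 3.06 and 2.53 FPM.

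Across all 7 groups the role groups followed these patterns mouse by mouse. Relative to the 12w+dox mean, the median log2 level of the BRCA1-PALB2-BRCA2 axis was -2.92 to -2.05 in the 12w-res mice, that of the strand invasion genes -2.63 to -2.18 and that of FANCI-FANCD2 -2.29 to -1.79. The other roles sat nearer 0, at -1.10 to -0.77 for junction processing, -0.74 to -0.39 for the strand-pairing complex genes, -0.69 to -0.63 for end resection, -0.74 to -0.36 for the Fanconi core and -0.76 to -0.18 for the checkpoint kinases. For 5 of the 8 roles every 12w-res mouse lay below every long-term mouse on dox. The ranges met for the strand-pairing complex genes, the Fanconi core and the checkpoint kinases, whose lowest 6w+dox mice were at -0.40, -0.42 and -0.26. Relative to 16w +dox, every role median of a short-term mouse lay between -0.45 and 0.68.

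**Figure D4:**
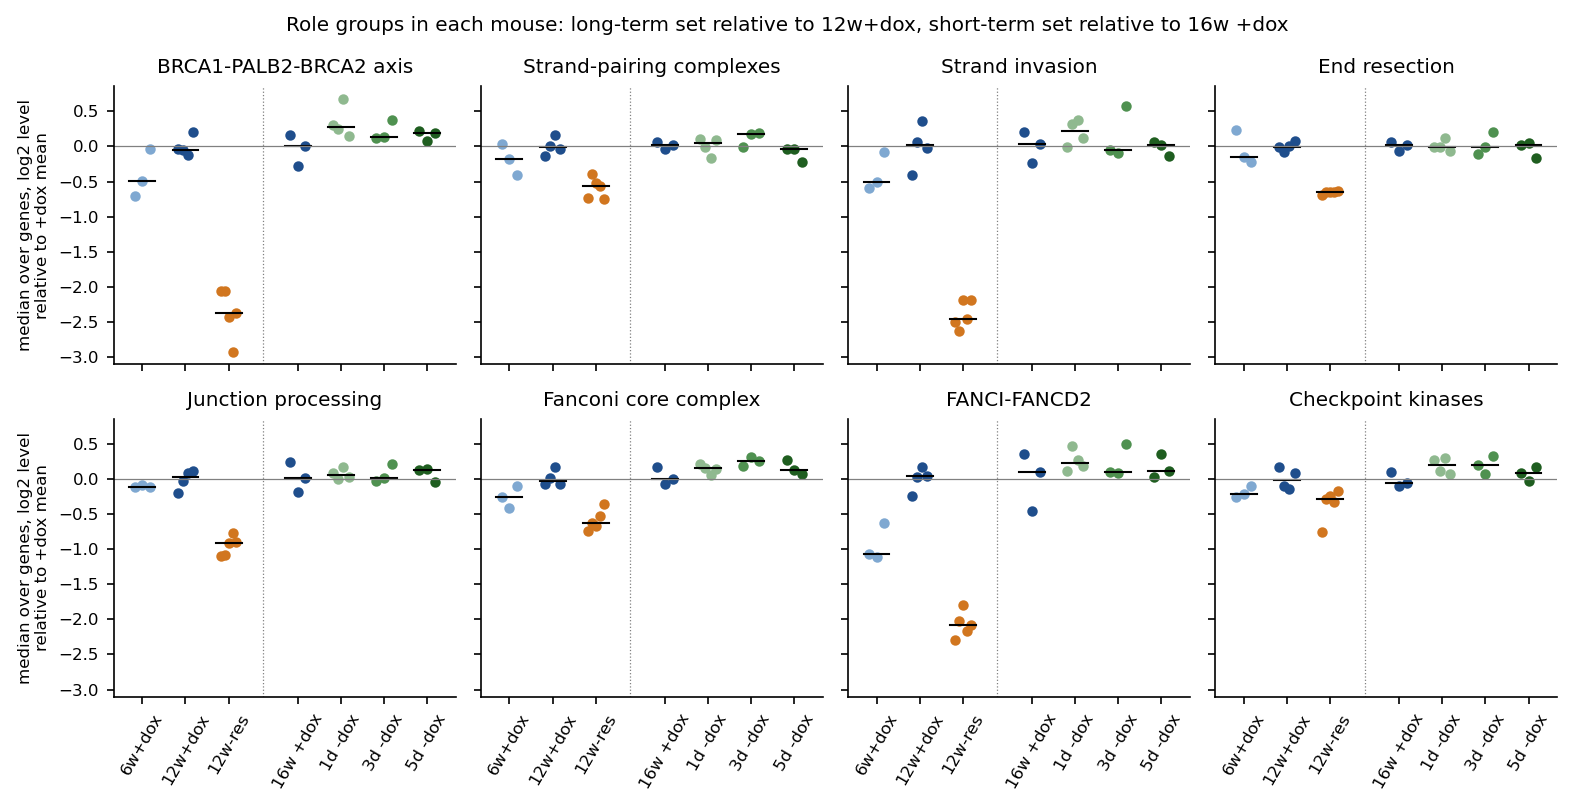
Median over the genes of each role of the log2 level in each mouse (points), relative to the 12w+dox mean for the long-term groups and to the 16w +dox mean for the short-term groups, with group medians as lines and the dotted line parting both sets. The 12w-res points of the BRCA1-PALB2-BRCA2 axis, the strand invasion genes and FANCI-FANCD2 lie at -1.79 or lower, and the short-term points lie between -0.45 and 0.68.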

How the data were processed

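Pituitary RNA-seq from 25 mice in 7 groups was analysed, 1 library per mouse as far as the labels say. Per the labels and the study's methods, the authors mapped reads to mm10 with STAR, counted RefSeq genes and deposited a signal, fragments scaled to depth by DESeq2 size factors (FPM). Dividing by the value of 1 read gave whole reads for 100% of values within 0.1 read. Lines naming no gene, 68.8% to 75.0% of short-term libraries, were left out.

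Genes with at least 10 reads in over 50% of the samples of 1 group were tested with limma 3.58.1 in R 4.3.3 on log2(FPM + 0.5), with a mean-variance trend and all groups of a set in 1 fit, so fold changes understate those of low genes. P-values were adjusted over all genes (Benjamini-Hochberg), and calls needed adjusted p under 0.05 and a log2 fold change over 1 in size. The script was tested on simulated data. Alternatives were DESeq2 1.42.0 and edgeR 4.0.16 on whole reads, other scalings, pseudocounts, filters, sample sets and covariates. The genes, lists and tests were chosen with earlier results of these data known. All 39 genes are counted. Named with full statistics were called genes, the 3 largest past the adjusted p only, and elsewhere the called genes (up to 6) or the 2 of lowest p in each direction. Fold thresholds apply on this log2 scale. Of the other pathway genes, 1 is not reported here.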

Additional observations from a re-analysis of the deposited data

Results flagged for a closer look

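In 9 of 116 sets of 4 or 5 mice, 1 mouse stood apart from the rest of its group by Dixon's criterion, which chance meets in about 1 of 20 sets. At 12w+dox these were Palb2 in replicate 2 (2.71 FPM, others 3.43 to 3.56), Fanca in replicate 4 (7.62 FPM, others 4.07 to 4.64) and Fancg in replicate 1 (4.57 FPM, others 8.13 to 8.77). In 12w-res replicate 3, Xrcc2 was low (4.19 FPM, others 5.81 to 6.45), Rad54b was high (0.865 FPM, others 0.106 to 0.276) and Rad50 was high (11.01 FPM, others 9.05 to 9.45). Slx4 was low in 12w-res replicate 1 (18.7 FPM, others 24.4 to 25.8). At 1d -dox, Bard1 was high in replicate 3 (7.70 FPM, others 5.17 to 5.38) and Palb2 was high in replicate 1 (1.44 FPM, others 1.01 to 1.07).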

How the results depend on the processing

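Of the calls, 18 of 19 against 12w+dox and 14 of 16 against 6w+dox held under every alternative in which they were tested, 8 genes in each comparison not being tested under the filter of 10 reads in every sample. For 12w-res against 12w+dox the median of the genes was -1.20 with DESeq2, -1.19 with edgeR and with a pseudocount of 0.1, -1.56 with read totals, -0.84 among females and -0.59 with at least 10 reads in every sample, and -1.14 to -0.88 with 1 mouse left out. Called lower were 30 with read totals and 11 of the 30 genes left by the 10-read filter. Against 6w+dox the median was -1.02 (DESeq2 and read totals), -1.01 (edgeR), -0.96 and -0.64 (pseudocounts 0.1 and 1), -0.52 (10-read filter) and -0.89 to -0.69 with 1 mouse left out. Called lower were 8 under that filter and 25 by adjusted p alone, which also gave 1 higher. For 12w+dox against 6w+dox, called higher were 5 with read totals, 0 with a pseudocount of 1, with sex as a covariate or among females, 4 by adjusted p alone (1 lower), and 0 to 2 with 1 mouse left out, and the median was 0.52 with read totals. Rad51c then stood at 0.0397, reversed. The median at 3d -dox was 0.32 with read totals, and that at 1d -dox was 0.0410 to 0.239 with 1 mouse left out. Read totals moved the median of all genes to -0.61, -0.33, 0.29 and 0.14 in these 4 comparisons. The cause was not tested, save that the 10-read filter tested fewer genes.

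With the replicate number as a block, 19 and 16 genes were called lower, 1 higher between 12 and 6 weeks and 0 in the short-term set, with medians of -0.93, -0.83, 0.24, 0.16, 0.18, 0.05 and -0.08 in the order of the report. Same-numbered samples did not deviate together (correlations from -0.165 to 0.237 and from -0.208 to 0.168). No pairing by number was seen, though such correlations cannot exclude one. Low read counts in 12w-res limit the precision of Brip1, Eme1, Exo1, Fanca, Rad51ap1, Rad51b, Rad54b, Rad54l and Rmi2.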
